A study of Homo sapiens with 11 samples.

Results

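The genes described here are 10 mucins and regulators of secretory cells, chosen by symbol: the mucins MUC1, MUC5AC, MUC5B, MUC13, MUC16 and MUC20, the transcription factors SPDEF, FOXA1 and FOXA2, and the disulfide isomerase AGR2. Under these symbols 9 of the 10 were matched among 23608 measured genes, and MUC5AC was not analysed here. RNA sequencing measured them in A549, a line derived from a human lung adenocarcinoma. Cigarette smoke condensate (CSC) is the particulate matter of smoke collected in a solvent, and the labelled dose is 20 µM, quoted as written although a mixture has no molar concentration. CSC-treated cells gave 3 libraries at 2 weeks and 3 at 48 hours. Cells given the vehicle DMSO gave 3 libraries at 2 weeks and 2 at 48 hours (replicates 2 and 3). All groups are of the same single line, and nothing in the labels says whether replicates came from separate cultures. The p-values therefore cover the spread among these libraries alone, which may be technical.

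Mucins are long glycoproteins whose serine- and threonine-rich repeats carry dense O-linked sugars. The secreted gel-forming mucins MUC5AC and MUC5B make up airway mucus, whereas MUC1, MUC13, MUC16 and MUC20 are anchored in the membrane. In mouse airways, SPDEF is an ETS factor that drives goblet cell differentiation, FOXA2 restrains it, and FOXA1 shares much of the forkhead DNA specificity of FOXA2. AGR2 is an endoplasmic reticulum protein needed for mucin folding in the mouse gut.

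The stretches of 250 bases before the annotated start of 4 of these genes are shown because MUC13 and SPDEF each passed a test below, AGR2 was the most abundant member, and FOXA1 is a forkhead factor itself. The RefSeq promoter table (GRCh38.p14) matched 6 of the 10 symbols, and all 4 genes shown lie on the minus strand. MUC13 is read from chr3:124934752-124935001, AGR2 from chr7:16805000-16805249, SPDEF from chr6:34556330-34556579 and FOXA1 from chr14:37595250-37595499. Capitals mark a forkhead match, which is TGTTTAC, the variant spelled TGTTTGC, the variant spelled TATTTAC or the variant spelled TATTTGC, on either strand.
MUC13: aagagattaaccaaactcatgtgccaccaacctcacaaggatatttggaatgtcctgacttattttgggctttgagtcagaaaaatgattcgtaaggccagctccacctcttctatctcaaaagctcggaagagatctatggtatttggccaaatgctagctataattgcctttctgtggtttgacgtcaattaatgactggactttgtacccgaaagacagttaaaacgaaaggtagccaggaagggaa
AGR2: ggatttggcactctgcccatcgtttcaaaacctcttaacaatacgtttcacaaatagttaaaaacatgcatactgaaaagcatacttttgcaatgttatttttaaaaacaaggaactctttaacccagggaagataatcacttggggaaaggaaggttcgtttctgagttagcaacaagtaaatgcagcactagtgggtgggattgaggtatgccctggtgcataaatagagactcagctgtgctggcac
SPDEF: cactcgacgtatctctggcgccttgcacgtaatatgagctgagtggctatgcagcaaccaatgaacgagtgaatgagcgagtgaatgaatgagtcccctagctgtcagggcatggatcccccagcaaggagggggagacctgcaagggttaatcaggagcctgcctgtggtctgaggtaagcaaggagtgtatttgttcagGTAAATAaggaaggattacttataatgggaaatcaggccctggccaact
FOXA1: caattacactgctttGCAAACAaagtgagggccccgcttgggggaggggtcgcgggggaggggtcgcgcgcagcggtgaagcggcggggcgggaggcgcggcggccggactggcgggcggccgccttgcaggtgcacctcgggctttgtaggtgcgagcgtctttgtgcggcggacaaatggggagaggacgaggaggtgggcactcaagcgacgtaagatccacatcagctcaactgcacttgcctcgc
SPDEF held 1 forkhead match, whose first base lies 49 bases before the start, and FOXA1 held 1 at 235 bases before it. A match was present in 10.6% of 27303 promoters of that length, and the last pair of forkhead spellings was added after the sequences were seen. The SPDEF match is of an added spelling, so it was not fixed in advance and cannot be weighed against that share. The xenobiotic response core GCGTG (31.9% of promoters) and the SPDEF core CCGGAT (5.81%), searched on both strands, had no match in the promoters of the 6 matched members. A match is a description of letters, not a bound site.

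Each library's FPKM added up to 338507 to 484053, with 11742 to 12051 genes at an FPKM of 1 or more. FPKM scale fragment numbers by transcript length and by the library's mapped fragments, so levels can be compared between genes. The depth in reads is unknown. A common step in the low values gave 10 libraries a relative depth of 1 to 1.46, whereas CSC 2 weeks replicate 2 was at 3.16. The 5 epithelial markers EPCAM, KRT8, KRT18, KRT19 and CDH1 reached an FPKM of 1 in all 11 libraries. Defining products of secretory airway cells were near 0: the club cell genes SCGB1A1, SCGB3A1 and SCGB3A2 and the goblet cell gene CLCA1 were listed at 0 in all 11 libraries, and TFF3 in 10. Of the 6 matched goblet markers only SPDEF and AGR2 reached the level needed for testing. The genes are therefore described as mucins and regulators of a carcinoma line, not as markers of goblet or club cells.

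The members spanned a wide range of levels, and the membrane and gel-forming mucins stood well below AGR2. AGR2 had a median of 64.0 FPKM over the 11 libraries and ranked 554th of all genes by mean FPKM. FOXA2 followed with a median of 19.1 FPKM, FOXA1 with 6.60, MUC1 with 3.30, SPDEF with 2.54, MUC13 with 1.94 and MUC5B with 0.854. MUC16, the carrier of the CA125 antigen, reached at most 0.0278 FPKM and was listed at 0 in 1 library, and MUC20 reached at most 0.150 FPKM and was listed at 0 in 2. Both stayed under the threshold for testing, which is an FPKM of 1 or more in 2 or more libraries, and which the other 7 matched members passed among 12506 genes. MUC20 is uncertain in addition, because it has a pseudogene copy, MUC20P1 (hg19, chr3:195341818-195347104), and shares exon sequence with the lncRNA MUC20-OT1. MUC5B overlaps the antisense gene MUC5B-AS1 and MUC1 an overlapping protein-coding annotation on the same strand, and the strand setting of the counting is not given in the sources used here.

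**Figure D1:**
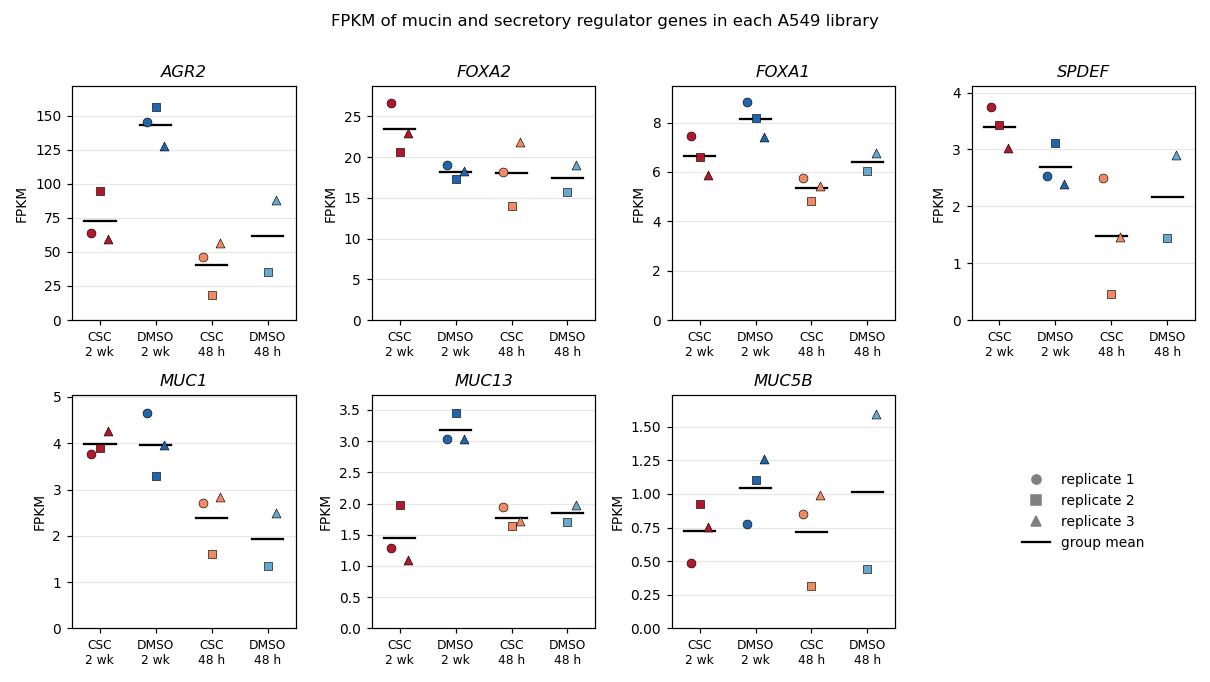
FPKM (vertical axes, from 0) of the 7 tested members in each of the 11 libraries, by group; points are libraries, shaped by replicate number, and lines are group means. MUC13 lay between 1.09 and 1.98 FPKM in the CSC libraries at 2 weeks, all below the DMSO libraries at 2 weeks (3.03 to 3.45), and AGR2 showed the same separation.

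After 2 weeks, MUC13 was lower in CSC than in DMSO cells, and no other member passed the test as fitted here. Even so, AGR2 was lower and FOXA2 higher in every CSC library than in every DMSO library. Tests were made with limma on log2(FPKM + 0.5), and calls needed a p under 0.05 after Benjamini-Hochberg adjustment over all tested genes. Changes on this scale understate those of weakly expressed genes. Of the 7 members, 1 was called, lower, against 2.4% of all tested genes called lower, 3.01% called higher and 5.41% called in either direction. By another scaling of the libraries the split of all calls moved. It was 376 higher and 300 lower here, against 289 higher and 460 lower by median-of-ratios scaling, 264 and 487 at a common sum of FPKM, and 312 and 434 by quantile normalization. Members whose groups did not overlap were 1 above (20.3% of all genes) and 2 below (9.84% of all genes). Positive changes were seen in 3 members and negative changes in 4, with a median log2 change of -0.28, against 0.10 over all genes tested.

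Among the mucins, MUC13 (hg19, chr3:124624289-124653595), a membrane mucin of gut epithelium, had 1.30, 1.98 and 1.09 FPKM in the CSC libraries at 2 weeks, against 3.04, 3.45 and 3.03 FPKM in the DMSO libraries. Every CSC library lay below every DMSO library. The means were 1.46 ± 0.464 and 3.17 ± 0.239 FPKM (SD, n = 3 each), a ratio of 0.459. The log2 change was -0.93 ± 0.16 (SE, 95% interval -1.29 to -0.58, limma adjusted p = 0.00665). It remained called with each of the 11 libraries left out in turn (adjusted p from 0.00192 to 0.0426). The highest CSC value came from the library of greatest depth, and without it the log2 change was -1.12 (adjusted p = 0.00192). In bulk RNA, fewer cells that express a gene and less RNA per cell cannot be told apart.

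MUC1 (hg19, chr1:155158300-155162706), a widely expressed epithelial mucin, had 3.77, 3.90 and 4.26 FPKM in CSC cells at 2 weeks, against 4.64, 3.30 and 3.96 FPKM in DMSO cells. The groups overlapped, with means of 3.98 ± 0.254 and 3.96 ± 0.673 FPKM, and the log2 change was 0.01 ± 0.21 (95% interval -0.44 to 0.46). The sign of this change turned with the scaling, reaching -0.11 at a common sum of FPKM. MUC5B (hg19, chr11:1244295-1283406), the gel-forming mucin of airway glands, had 0.488, 0.925 and 0.754 FPKM in CSC cells, against 0.780, 1.10 and 1.26 FPKM in DMSO cells. These groups overlapped too, and the log2 change of -0.34 ± 0.31 did not pass the test (adjusted p = 0.518). MUC5B reached an FPKM of 1 in 3 libraries, all of them DMSO, so it was tested through the groups where it is high. Its negative changes add no support to the member counts and medians for CSC against DMSO. Summed over the 5 matched mucins, levels were 6.25 ± 0.676 FPKM in CSC cells and 8.29 ± 0.346 FPKM in DMSO cells at 2 weeks (SD, n = 3 each).

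Among the regulators at 2 weeks, SPDEF (hg19, chr6:34505579-34524110) had 3.75, 3.42 and 3.03 FPKM in CSC cells, against 2.54, 3.12 and 2.39 FPKM in DMSO cells. Its groups overlapped and its log2 change was 0.30 ± 0.33 (adjusted p = 0.604). FOXA1 (hg19, chr14:38058757-38064325) had 7.46, 6.60 and 5.86 FPKM in CSC cells, against 8.82, 8.18 and 7.44 FPKM in DMSO cells. The highest CSC library of FOXA1 just passed the lowest DMSO library, and the log2 change of -0.28 ± 0.12 was not called (adjusted p = 0.165). It was called at a common sum of FPKM (-0.41, adjusted p = 0.0374) and with library weights (-0.39, adjusted p = 0.00909). FOXA2 (hg19, chr20:22561642-22566101) had 26.7, 20.6 and 22.9 FPKM in CSC cells, against 19.1, 17.3 and 18.3 FPKM in DMSO cells. All CSC libraries of FOXA2 lay above all DMSO libraries, yet the log2 change of 0.35 ± 0.15 was not called (adjusted p = 0.188), except with library weights (adjusted p = 0.0230).

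AGR2 (hg19, chr7:16832264-16844738) had 64.0, 94.4 and 59.8 FPKM in CSC cells at 2 weeks, against 145, 157 and 128 FPKM in DMSO cells. The groups did not overlap, and the means of 72.7 ± 18.9 and 143 ± 14.5 FPKM (SD, n = 3 each) stood at a ratio of 0.508. The log2 change was -0.997 ± 0.385 (95% interval -1.83 to -0.16), with an unadjusted p of 0.0231 and an adjusted p of 0.140 in limma. In a fit of the 2-week libraries alone, where the wide spread of AGR2 at 48 hours does not enter, the adjusted p was 0.00508 for the same change, and with library weights it was 0.00884 for a change of -1.21. The deposited FPKM of AGR2 lay above its own deposited upper bound in 8 of the 11 libraries, so its level is uncertain.

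Of the marker lists of other cell types, the goblet, basal and fibroblast sums separated CSC from DMSO cells at 2 weeks, as did the sum of the line's own epithelial markers. The 6 matched goblet markers, which include the members AGR2 and SPDEF, summed to 63.3 to 98.5 FPKM in CSC cells. They summed to 130.4 to 159.9 FPKM in DMSO cells, and nearly all of the goblet sum was AGR2. The summed FPKM of the 5 epithelial markers was 2096 to 2769 in CSC cells and 3059 to 3554 in DMSO cells at 2 weeks. The 4 basal markers summed to 2.45 to 3.58 FPKM in CSC cells and 5.65 to 6.50 FPKM in DMSO cells, nearly all of it TP63, with KRT14 listed at 0 in 10 libraries. The 5 fibroblast markers summed to 7.23 to 9.58 FPKM in CSC cells and 11.03 to 11.93 FPKM in DMSO cells, carried by COL1A1, while COL1A2 and DCN were listed at 0 in all 11. The sums for ciliated, club, alveolar type I, alveolar type II, endothelial and immune markers overlapped between CSC and DMSO cells at 2 weeks; the ciliated markers, for example, summed to 2.501 to 3.47 FPKM in CSC cells and 2.82 to 4.40 FPKM in DMSO cells. The part of these markers in the member changes was not tested.

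**Figure D2:**
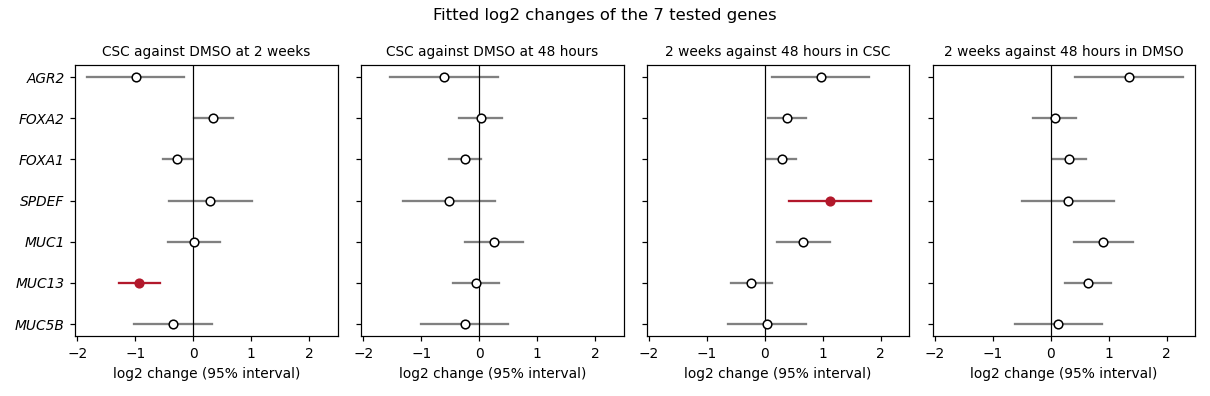
Fitted log2 change (horizontal axes) of each tested member in 4 comparisons, with 95% intervals; filled red points were called. MUC13 was called for CSC against DMSO at 2 weeks (-0.93), and SPDEF for 2 weeks against 48 hours in CSC (1.12).

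At 48 hours of CSC no member was called by limma, and none had an unadjusted p under 0.05, against 0.288% of all tested genes called and 8.49% with an unadjusted p under 0.05. FOXA1 was the only member whose groups did not overlap, with 5.75, 4.81 and 5.43 FPKM in CSC cells against 6.03 and 6.78 FPKM in DMSO cells, where 11.8% of all genes lay below in the same way. Its log2 change was -0.25 ± 0.13 (adjusted p = 0.680). AGR2 had 46.0, 18.2 and 56.4 FPKM in CSC cells, against 34.9 and 88.0 FPKM in DMSO cells. SPDEF had 2.499, 0.463 and 1.47 FPKM in CSC cells, against 1.44 and 2.90 FPKM in DMSO cells. Both groups of both genes spread widely and overlapped, and their log2 changes were -0.61 ± 0.43 and -0.53 ± 0.37. MUC13 had 1.94, 1.65 and 1.72 FPKM in CSC cells, against 1.71 and 1.98 FPKM in DMSO cells, with a log2 change of -0.05 ± 0.18 (95% interval -0.44 to 0.35). MUC1 had 2.71, 1.60 and 2.83 FPKM in CSC cells, against 1.35 and 2.495 FPKM in DMSO cells, and MUC5B 0.854, 0.317 and 0.989 FPKM in CSC cells, against 0.441 and 1.59 FPKM in DMSO cells. Neither mucin separated the groups. FOXA2 had 18.1, 13.99 and 21.9 FPKM in CSC cells, against 15.7 and 19.1 FPKM in DMSO cells, which also overlapped. The median log2 change of the members was -0.25, against 0.00 over all genes tested.

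The difference between the CSC effects at 2 weeks and 48 hours was tested directly, and no member was called by limma, against 0.04% of all genes (0.008% higher and 0.032% lower). MUC13 had the only unadjusted p under 0.05, with a difference of -0.89 ± 0.25 on the log2 scale (limma, adjusted p = 0.550). The MUC13 change between DMSO and CSC at 2 weeks was therefore not shown to differ from its change at 48 hours.

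Between 48 hours and 2 weeks of DMSO, all 7 members changed in the positive direction, and none was called by limma (4 had an unadjusted p under 0.05), against 0.768% of all tested genes called (0.656% higher and 0.112% lower). In 4 members, MUC1, MUC13, FOXA1 and AGR2, every 2-week library lay above both 48-hour libraries, as did 28.8% of all genes, and no member lay wholly below, as 7.88% of all genes did. The median log2 change of the members was 0.32, against 0.09 over all genes tested. MUC1 had 4.64, 3.30 and 3.96 FPKM at 2 weeks, against 1.35 and 2.495 FPKM at 48 hours, with a log2 change of 0.91 ± 0.23 (adjusted p = 0.105). The log2 change of MUC13 was 0.65 ± 0.18 (adjusted p = 0.131) and that of AGR2 was 1.35 ± 0.43 (adjusted p = 0.186). FOXA2 changed by 0.07 ± 0.17, and this sign turned under the 3 other scalings. The DMSO libraries at 2 weeks serve here and in the comparison with CSC at 2 weeks, so the higher DMSO level of MUC13 and AGR2 at 2 weeks enters both with opposite sign.

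Between 48 hours and 2 weeks of CSC, SPDEF rose, the only member of 7 called, against 12.3% of all tested genes called higher, 1.38% called lower and 13.7% in either direction. It had 3.75, 3.42 and 3.03 FPKM at 2 weeks, against 2.499, 0.463 and 1.47 FPKM at 48 hours, and every 2-week library lay above every 48-hour library. The means were 3.40 ± 0.363 and 1.48 ± 1.02 FPKM (SD, n = 3 each), and the log2 change was 1.12 ± 0.33 (adjusted p = 0.0429). The call was lost in 8 of the 11 fits that left out 1 library, with an adjusted p up to 0.132; it held without CSC 48 hours replicate 1 and without either DMSO library at 48 hours. It was also lost under each of the 3 other scalings (adjusted p from 0.111 to 0.140), with log2 changes of 0.98 by median of ratios, 0.89 at a common sum and 1.053 by quantile normalization. Relative to the median of all genes the change was 0.94 here and 0.96, 0.98 and 1.04 under those scalings. Without CSC 48 hours replicate 2, the lowest library, the log2 change was 0.68 (adjusted p = 0.0966). SPDEF was not called with library weights either. The median change of all genes was 0.19 here and fell to between -0.09 and 0.02 under those scalings, where the split of calls over all genes, 1536 higher and 172 lower here, became 186 and 243 (median of ratios), 85 and 455 (common sum) and 122 and 200 (quantile). In 4 members, MUC1, SPDEF, FOXA1 and AGR2, the 2-week libraries lay wholly above the 48-hour libraries, as did 28.4% of all genes, and none lay wholly below (4.47% of all genes). MUC1 had 3.77, 3.90 and 4.26 FPKM at 2 weeks, against 2.71, 1.60 and 2.83 FPKM at 48 hours, with a log2 change of 0.67 ± 0.21 (adjusted p = 0.0511). MUC13 alone changed in the negative direction (-0.24 ± 0.16, adjusted p = 0.313).

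The order of the group means differed between members. MUC13 was highest in DMSO cells at 2 weeks, clear of the other 3 groups, which overlapped along the order. AGR2 was highest in DMSO cells at 2 weeks, and the ranges of the next 3 groups overlapped from neighbour to neighbour. MUC1 was higher at 2 weeks than at 48 hours under both treatments, and within each time the treatments overlapped. FOXA2 was highest in CSC cells at 2 weeks, clear of the DMSO cells of that time but overlapping CSC cells at 48 hours. FOXA1 ran from DMSO cells at 2 weeks through overlapping neighbours to CSC cells at 48 hours, which lay below the DMSO cells of that time. For SPDEF and MUC5B the ranges of neighbouring groups in the order all overlapped.

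The SD between libraries was larger at 48 hours than at 2 weeks, under both treatments, for 5 of the 7 tested members, MUC1, MUC5B, SPDEF, FOXA2 and AGR2. The share of all genes with such a spread was not counted, and the DMSO group at 48 hours has 2 libraries. In both groups at 48 hours replicate 2 was the lowest library for all 7 tested members, as it was for 24.2% of all genes. CSC 48 hours replicate 2 was the lowest of the 5 libraries at 48 hours for 6 of the 7, and 24.5% of all genes. On the log2 scale the SD of AGR2 was 0.35 in CSC cells and 0.15 in DMSO cells at 2 weeks, and 0.85 in CSC cells and 0.93 in DMSO cells at 48 hours. For SPDEF the SD was 0.135 in CSC cells and 0.170 in DMSO cells at 2 weeks, and 0.828 in CSC cells and 0.575 in DMSO cells at 48 hours. MUC13 did not have this wider spread, with an SD of 0.33 in CSC cells and 0.09 in DMSO cells at 2 weeks, and 0.10 in CSC cells and 0.12 in DMSO cells at 48 hours. Nor did FOXA1, with an SD of 0.162 in CSC cells and 0.116 in DMSO cells at 2 weeks, and 0.120 in CSC cells and 0.111 in DMSO cells at 48 hours. The deviations of AGR2 from its group means ran with those of MUC5B (Pearson r = 0.88), SPDEF (0.83) and MUC1 (0.81) over 11 libraries, which share their RNA and their scaling across genes. For each of these genes the widest deviations were at 48 hours. At 2 weeks AGR2 and MUC1 deviated in opposite directions in some libraries, such as CSC replicate 2 (0.404 and -0.023). In others, such as CSC replicate 1 (-0.153 and -0.067), they deviated in the same direction.

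**Figure D3:**
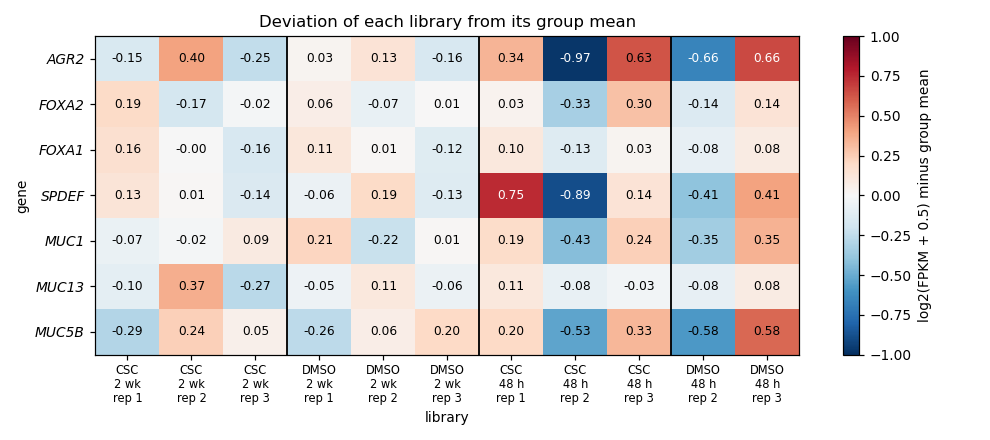
Deviation of log2(FPKM + 0.5) from its group mean (colour and printed value) for each tested member (rows) and library (columns), with lines between groups. At 48 hours replicate 2 was below the group mean for all 7 members in CSC and in DMSO cells, by up to 0.97 for AGR2 in CSC cells.

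By the Pearson correlation of log2(FPKM + 0.5) over the 11 libraries, the genes most like MUC13 were SERPINB7, a serpin, with r = 0.93, and GALNT1, with r = 0.93. SERPINB7 averaged 0.245 ± 0.0846 FPKM in CSC cells and 1.19 ± 0.263 FPKM in DMSO cells at 2 weeks. At 48 hours it averaged 0.408 ± 0.0720 FPKM in CSC cells and 0.537 ± 0.0346 FPKM in DMSO cells. SERPINB7 was therefore tested through the DMSO libraries at 2 weeks, the group where MUC13 is also high. Its likeness and its separation at 2 weeks add no support to the MUC13 call. The genes most like SPDEF were GPX2, a glutathione peroxidase, with r = 0.96, and AKR1C1, an aldo-keto reductase, with r = 0.95. These correlations are descriptions over libraries that share conditions, and carry no test.

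Of the 20 tested mucin O-glycosylation enzymes, 2 were called lower and none higher in CSC than in DMSO cells at 2 weeks. Of all genes 2.4% were called lower and 3.01% higher. The median log2 change of the list was -0.02, against 0.10 over all genes tested. GALNT1, which adds the first N-acetylgalactosamine to mucin repeats, had 36.2, 45.7 and 34.4 FPKM in CSC cells, against 77.6, 82.5 and 70.5 FPKM in DMSO cells. The groups lay far apart, with a log2 change of -0.99 ± 0.12 (limma adjusted p = 0.00062), which was called in all 11 fits that left out 1 library. GALNT7, which extends repeats that already carry sugars, had 17.4, 24.8 and 17.5 FPKM in CSC cells, against 28.8, 32.1 and 27.8 FPKM in DMSO cells. Its log2 change was -0.58 ± 0.14 (adjusted p = 0.0298), called in 6 of the 11 such fits. It was lost without any DMSO library at 2 weeks and without CSC 2 weeks replicate 1 or 3, with an adjusted p up to 0.131. In CSC cells over time GALNT7 had 17.4, 24.8 and 17.5 FPKM at 2 weeks, against 13.8, 13.2 and 15.6 FPKM at 48 hours, a log2 change of 0.46 ± 0.14 (adjusted p = 0.0457). That call held in 1 of the 11 such fits and was lost under the 3 other scalings (0.16 to 0.28, adjusted p from 0.293 to 0.606). In DMSO cells GALNT1 was also higher at 2 weeks than at 48 hours (log2 change 0.70 ± 0.13, adjusted p = 0.0333), a call lost under all 3 other scalings (0.55 to 0.61, adjusted p from 0.111 to 0.183) and without any 1 of the 5 DMSO libraries (up to 0.233).

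Of 30 goblet and club cell products, only 5 were tested, and 8 were listed at 0 in all libraries. The list was chosen with earlier results of these data known, so its counts and medians cannot be weighed against those of all genes. At 2 weeks 2 of the 5 were called lower in CSC than in DMSO cells, where 2.4% of all genes were called lower. The median log2 change of the list was -0.85, against 0.10 over all genes tested. Both genes called lower were CEACAM adhesion molecules anchored in the membrane. CEACAM6 had 5.46, 7.58 and 4.95 FPKM in CSC cells, against 29.7, 30.1 and 26.1 FPKM in DMSO cells, a log2 change of -2.18 ± 0.24 (adjusted p = 0.000314). CEACAM5 had 0.273, 0.332 and 0.251 FPKM in CSC cells, against 1.63, 1.36 and 1.19 FPKM in DMSO cells, a log2 change of -1.26 ± 0.22 (adjusted p = 0.00602). CEACAM5 reached an FPKM of 1 in the 3 DMSO libraries at 2 weeks and in no other, so it was tested through the group where it is high. Its call adds no support to either count of this list, and its change adds none to the median of the list. Neither group pair overlapped, and both were called in all 11 fits that left out 1 library. Between 48 hours and 2 weeks of DMSO 4 of the 5 products were called higher, where 0.656% of all genes were, but without DMSO 48 hours replicate 3 only SLPI of these 4 was called. SLPI, a secreted protease inhibitor, had 9.62, 9.97 and 6.70 FPKM at 2 weeks, against 0.896 and 0.307 FPKM at 48 hours, a log2 change of 3.11 ± 0.34 (adjusted p = 0.000788). It rose in CSC cells too, with 5.17, 5.67 and 3.26 FPKM at 2 weeks against 0.626, 0.307 and 1.36 FPKM at 48 hours, a log2 change of 2.09 ± 0.30 (adjusted p = 0.00497). SLPI was called over time in all 11 fits that left out 1 library, under each treatment. At 48 hours it reached an FPKM of 1 in CSC replicate 3 alone, so it too was tested through the groups where it is high. Its call adds no support to the count over time. LCN2, a secreted protein that binds bacterial siderophores, had 3.80, 4.08 and 3.595 FPKM at 2 weeks of DMSO, against 0 and 0.402 FPKM at 48 hours (adjusted p = 0.0181). This call was lost without any 1 of the 5 DMSO libraries (adjusted p up to 0.158). That of CEACAM5 (adjusted p = 0.0121) was lost without DMSO 48 hours replicate 3 or DMSO 2 weeks replicate 1 or 2 (adjusted p up to 0.114). CEACAM6 rose by 1.90 ± 0.27 in the same comparison (adjusted p = 0.00632), a call lost without DMSO 48 hours replicate 3 (adjusted p = 0.0777).

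Of the 28 tested airway secretory transcription factors and upstream regulators, 2 were called lower and none higher in CSC than in DMSO cells at 2 weeks. Of all genes 2.4% were called lower and 3.01% higher. The median log2 change of the list was -0.08, against 0.10 over all genes tested. SOX9, a factor of lung progenitors, had 2.25, 2.32 and 2.01 FPKM in CSC cells, against 6.28, 7.43 and 5.67 FPKM in DMSO cells, a log2 change of -1.36 ± 0.19 (adjusted p = 0.00128). HNF4A, a nuclear receptor of liver and gut epithelium, had 12.84, 11.01 and 11.60 FPKM in CSC cells, against 20.2, 17.4 and 18.6 FPKM in DMSO cells, a log2 change of -0.64 ± 0.13 (adjusted p = 0.0151). SOX9 was called in all 11 fits that left out 1 library, and HNF4A in 8, being lost without DMSO 2 weeks replicate 1 or 3 and without CSC 2 weeks replicate 3 (adjusted p up to 0.0717). In DMSO cells HNF4A was higher at 2 weeks than at 48 hours by 0.82 ± 0.15 (adjusted p = 0.0261), called in 6 of 11 such fits (lost without DMSO 48 hours replicate 2, any DMSO library at 2 weeks or CSC 2 weeks replicate 3, with an adjusted p up to 0.203) and lost at a common sum of FPKM (0.0783) and by quantile normalization (0.0620). It rose in CSC cells too, to 12.84, 11.01 and 11.60 FPKM at 2 weeks, against 6.50, 5.92 and 6.54 FPKM at 48 hours. That log2 change of 0.85 ± 0.13 (adjusted p = 0.00714) was called in all 11 such fits and under the 3 other scalings.

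Of the 23 tested genes of mucin folding, granules and ion transport, 1 was called higher and none lower in CSC than in DMSO cells at 2 weeks. Of all genes 3.01% were called higher and 2.4% lower. The median log2 change of the list was 0.01, against 0.10 over all genes tested. RAB3D, a GTPase of secretory granules, had 10.4, 8.58 and 8.85 FPKM in CSC cells, against 6.95, 6.09 and 6.09 FPKM in DMSO cells. Its log2 change of 0.51 ± 0.12 (adjusted p = 0.0262) was called in 6 of 11 fits that left out 1 library, and was lost without any DMSO library at 2 weeks and without CSC 2 weeks replicate 1 or 3 (adjusted p up to 0.112). It was also lost at a common sum of FPKM (adjusted p = 0.0639). Between 48 hours and 2 weeks of DMSO, SCNN1A, a sodium channel subunit, had 9.17, 10.1 and 8.89 FPKM at 2 weeks, against 1.197 and 1.865 FPKM at 48 hours, a log2 change of 2.30 ± 0.21 (adjusted p = 0.000234). SCNN1A rose in CSC cells too, to 5.59, 7.14 and 5.63 FPKM at 2 weeks, against 1.28, 0.778 and 1.67 FPKM at 48 hours, a log2 change of 1.95 ± 0.19 (adjusted p = 0.000269). Both SCNN1A calls held in all 11 fits that left out 1 library. UNC13D, which primes granules for release, rose by 1.28 ± 0.23 over time in DMSO cells (adjusted p = 0.0240), a call lost without DMSO 48 hours replicate 3 or any DMSO library at 2 weeks (adjusted p up to 0.197) and by quantile normalization (0.0626). Of 17 other mucin genes 15 were measured and 2 tested, CD164 and PODXL, and neither was called. At 48 hours of CSC no gene of the 5 lists was called by limma, although some had an unadjusted p under 0.05, as 8.49% of all genes did. They were 10 of the 28 regulators, 3 of the 20 glycosylation enzymes, 2 of the 23 folding and granule genes, 1 of the 2 other mucins and 0 of the 5 products.

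**Figure D4:**
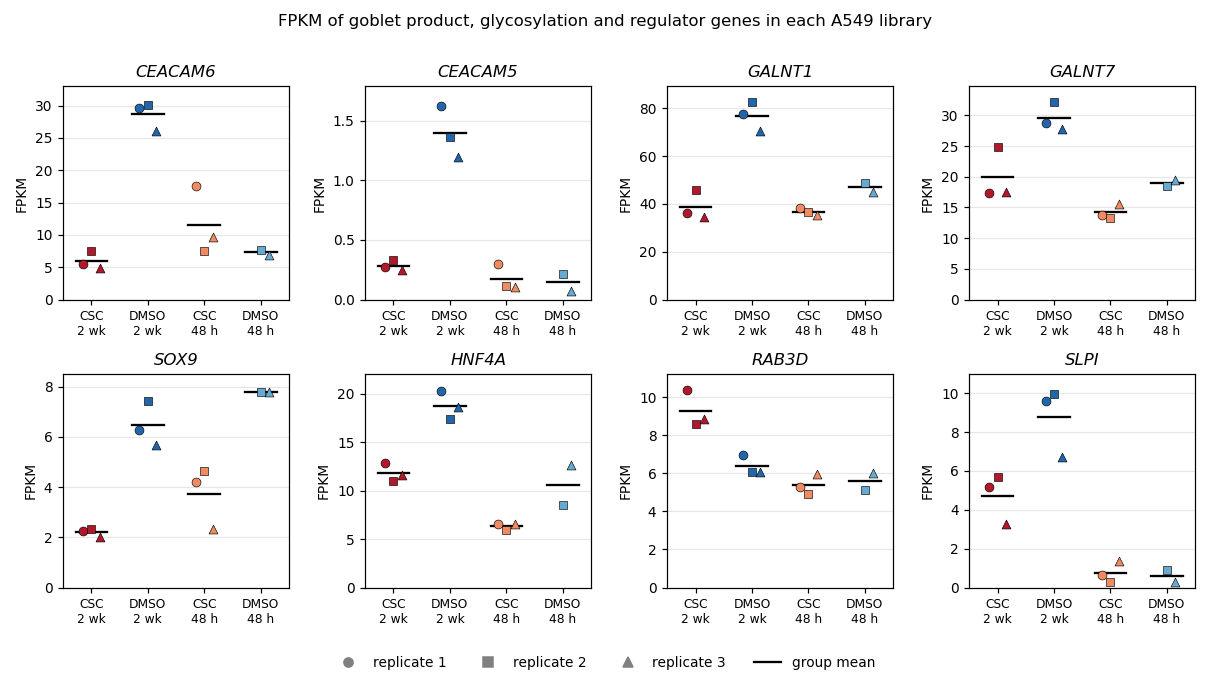
FPKM (vertical axes, from 0) of 8 listed genes in each library, by group; points are libraries, shaped by replicate number, and lines are group means. CEACAM6, CEACAM5, GALNT1, GALNT7, SOX9 and HNF4A were lower in every CSC library than in every DMSO library at 2 weeks, and RAB3D was higher.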

How the data were processed

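Total RNA of A549 cells was made into libraries with the Ribo-Zero Gold kit, which removes ribosomal RNA, then sequenced on a HiSeq2000 and aligned to hg19 with TopHat2 version 2.0.9 through BaseSpace, per the labels' protocols. CASAVA version 1.7.1a5 is listed in the submitters' processing notes. Which quantifier, annotation, strand setting and scaling produced the values is not given in the sources used here. The authors deposited 1 FPKM value per gene and locus, with bounds, in 25275 lines per library, and FPKM are not counts, so no count model was used. FPKM of 548 symbols at several loci were summed, and 1 gene with a failed estimate in 2 libraries was left out. File starts count from 0 and are given from 1.

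Libraries were grouped by title. limma version 3.58.1 in R version 4.3.3 was fitted to log2(FPKM + 0.5) of all 12506 tested genes in 11 libraries (4 groups, mean-variance trend, no block), after checking the procedure on simulated data. Calls were made at a Benjamini-Hochberg adjusted p under 0.05. Alternatives were pseudocounts of 0.1 and 1, no filter or a filter at an FPKM of 5, 3 scalings, eBayes without the trend or robust, library weights, a replicate block, a fit of the libraries compared, the highest locus of a symbol, and each library left out. Named genes were the members, the called genes with the smallest p in each list, and the genes most correlated with a called member. The members and lists were chosen with earlier results of these data known. Figures used matplotlib version 3.10.9.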

Additional observations from a re-analysis of the deposited data

Results flagged for a closer look

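For CEACAM6 the CSC effects at 2 weeks and at 48 hours differed by -2.73 ± 0.36 on the log2 scale, a difference tested in its own right (limma adjusted p = 0.0288). CSC cells had 5.46, 7.58 and 4.95 FPKM at 2 weeks against 29.7, 30.1 and 26.1 FPKM in DMSO cells, and 17.6, 7.48 and 9.71 FPKM at 48 hours against 7.64 and 6.93 FPKM in DMSO cells. The call held in 5 of the 11 fits that left out 1 library, and was lost without either DMSO library at 48 hours, any DMSO library at 2 weeks or CSC 2 weeks replicate 3 (adjusted p up to 0.209).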

How the results depend on the processing

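No called member reversed its direction. At 48 hours of CSC, and for the difference between the CSC effects, 0 members were called under all alternatives. At 2 weeks of CSC the count of 1 became 0 at a threshold of 5 FPKM, which leaves MUC13 untested, 2 at a common sum of FPKM or with only the libraries compared, and 4 with library weights, and stayed at 1 to 1 with each library left out. For 2 weeks against 48 hours in DMSO the count of 0 became 3 with library weights or only the libraries compared, and lay between 0 and 1 with each library left out (1 without CSC 48 hours replicate 2). For 2 weeks against 48 hours in CSC the count of 1 became 2 with a pseudocount of 1 or robust estimation. It became 3 with library weights, where MUC1 and FOXA2 were called higher and MUC13 lower, and SPDEF was not called. It became 0 under the 3 scalings, without the trend, with only the libraries compared, and under both other filter settings (none, or an FPKM of 5). The filter at an FPKM of 5 left SPDEF untested. The count lay between 0 and 2 with each library left out. Of all tested genes at 2 weeks of CSC, 5.41% were called, 2.13% without a filter, 8.17% with only the libraries compared, 30% with library weights, and 1.85% to 14.8% with each library left out (14.8% without CSC 2 weeks replicate 2). In CSC cells over time 13.7% were called, 4.06% without a filter, 21% at an FPKM of 5, 2.57% to 4.32% under the scalings, 28.2% with library weights, 0.636% with only the libraries compared and 1.16% to 21.1% with each library left out. In DMSO cells over time 0.768% were called, 0.216% without a filter, 0.368% to 0.48% under the scalings, 5.32% with library weights, 3.77% with only the libraries compared and 0.208% to 1.69% with each library left out. At 48 hours of CSC 0.288% were called, and 0.0247% to 1.25% under the alternatives; for the difference between the CSC effects 0.04%, and 0% to 0.12%. The causes were not tested.

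Replicate numbers were not taken to pair the libraries, since not every same-numbered pair had a correlation of deviations over 0.1. It ran from -0.202 to 0.311 over 15 same-numbered pairs (median 0.046) and from -0.222 to 0.282 over 30 others (median -0.043). Between CSC and DMSO, same-numbered pairs stood at 0.207 and 0.222 at 48 hours, and at 0.222, -0.151 and -0.121 at 2 weeks. The 2 DMSO libraries at 48 hours deviate as mirror images, so these pairs are not independent values. Whether replicate numbers pair the libraries is therefore not settled. With the replicate block the members called numbered 0 and 1 for CSC at 48 hours and 2 weeks, 0 for their difference, and 0 and 3 for time in DMSO and in CSC (SPDEF, with MUC1 at an adjusted p of 0.0195 and FOXA2 at 0.0464). Of all tested genes, that block called 0.352% and 7.56% for CSC at 48 hours and 2 weeks. It called 0.056% for their difference, and 0.544% and 18.7% for time in DMSO and in CSC. The DMSO group at 48 hours has 2 libraries, and the unknown read depth limits what the low values of MUC16, MUC20 and MUC5B can show.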
